A study of Mus musculus with 12 samples.

Results

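The 10 genes described here mark the stress response of the endoplasmic reticulum (ER) and the integrated stress response (ISR), namely Atf3, Atf4, Atf5, Ddit3, Trib3, Chac1, Hspa5, Xbp1, Herpud1 and Ern1. They were taken by gene symbol from the count table of the series, which listed 23420 genes. All 10 passed the filter on low counts that left 15306 tested genes, and none had a count of 0 in any library. RNA was sequenced from inguinal white adipose tissue (iWAT), the subcutaneous fat in which beige adipocytes arise in cold, of 12 male C57BL/6 mice aged 10 weeks, with 3 mice in each of 4 groups. All mice carried the HIF2a alleles with loxP sites. WT mice had no Cre, and mice labelled HIF2α AKO also carried Adiponectin-Cre, which is driven by an adipocyte promoter, so Cre and the deletion were never seen apart and the other cells of the fat pad kept their alleles. Mice of both genotypes stayed at 30 °C for 1 week (thermoneutrality, TN) or were held for 3 days at 4 to 6 °C (cold). The comparisons asked how these transcripts differed between temperatures and between the labelled genotypes.

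The unfolded protein response has 3 sensors in the ER membrane, the kinase PERK, the kinase and RNase IRE1α, which Ern1 encodes, and the transcription factor ATF6. PERK is at the same time 1 of the 4 kinases of the ISR, which phosphorylate the translation factor eIF2 on different signals, such as unfolded ER proteins, missing amino acids, viral RNA, and low heme or mitochondrial damage. Phosphorylated eIF2 slows general translation while it lets ATF4 and ATF5 be translated, and ATF4 then drives genes of amino acid synthesis and transport together with Ddit3, Trib3, Chac1 and Atf3. IRE1α splices the Xbp1 mRNA, and spliced XBP1 and cleaved ATF6 drive ER chaperones such as Hspa5 and degradation genes such as Herpud1. Gene counts resolve neither the translation of Atf4 nor the splicing of Xbp1, so the values below are of total transcript alone.

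The promoters of 5 of the genes are shown because they hold a motif of these pathways near the annotated start. RefSeq windows from 250 bases before to 50 bases after the start (assembly GRCm38.p6) were found for all 10 genes, in 11 windows. Both strands were searched for 4 motifs. The core of the C/EBP-ATF response element (TGATGNAA), which ATF4 dimers bind, was found in 4 of the 10 genes. Of all 27025 genes with such windows, 4.51% held it. The ER stress element is CCAAT and CCACG with 9 bases between them and is bound by ATF6 with NF-Y. It was found in Hspa5, and 0.137% of all genes with windows held it. Other forms of this element, such as those with another spacing, were not searched for. The unfolded protein response element (TGACGTGG, in 0.714% of genes) and the cAMP response element (TGACGTCA, in 2.03% of genes) were found in none of the 10. Each line gives 150 bases, 5′ to 3′ on the strand of the gene, with the motif in capitals. The 4 C/EBP-ATF elements lie on the opposite strand and therefore appear as TTNCATCA. The Trib3 line runs from base -121 to base 29 relative to the start, the Chac1 line from -200 to -51 and the others from -150 to -1. A match describes the letters only and is not evidence of binding.
Atf3 (chr1:191183334-191183483, minus strand): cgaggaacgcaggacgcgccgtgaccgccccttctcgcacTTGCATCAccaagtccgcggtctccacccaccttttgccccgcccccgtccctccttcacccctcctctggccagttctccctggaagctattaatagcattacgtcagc
Trib3 (chr2:152344032-152344181, minus strand): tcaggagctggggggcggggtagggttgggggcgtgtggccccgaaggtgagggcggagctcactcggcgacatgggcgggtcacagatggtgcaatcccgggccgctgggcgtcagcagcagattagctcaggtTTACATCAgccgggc
Chac1 (chr2:119351042-119351191, plus strand): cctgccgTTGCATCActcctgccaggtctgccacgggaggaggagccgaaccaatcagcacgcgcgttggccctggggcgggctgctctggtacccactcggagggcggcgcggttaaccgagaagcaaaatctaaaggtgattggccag
Herpud1 (chr8:94386279-94386428, plus strand): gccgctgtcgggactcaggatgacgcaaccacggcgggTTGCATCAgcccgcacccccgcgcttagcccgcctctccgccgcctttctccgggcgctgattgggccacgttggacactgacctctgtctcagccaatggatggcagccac
Hspa5 (chr2:34771940-34772089, plus strand): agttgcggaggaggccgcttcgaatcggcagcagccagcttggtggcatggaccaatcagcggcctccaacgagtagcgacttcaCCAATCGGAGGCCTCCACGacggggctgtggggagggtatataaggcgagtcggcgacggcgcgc

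Gene counts summed to between 22368316 and 35204631 per library. Values per mouse are given as CPM, counts relative to the library size after TMM scaling, a method that centres each library on its genes of moderate change. Ucp1, the marker of thermogenic fat, lay between 0.204 and 3.85 CPM at TN and between 2171 and 5897 CPM in cold, as the temperature labels state. Epas1, which encodes HIF2α, averaged 627 CPM in cold WT and 826 CPM in cold libraries labelled HIF2α AKO, against 360 and 348 CPM at TN. It was not lower in the cold libraries of the deleted genotype, and counts over the whole gene do not resolve the floxed part, so genotypes are named as labelled. The summed level of 10 skeletal muscle markers stood at 1300 CPM in cold HIF2α AKO replicate 1 and at 1603 CPM in TN HIF2α AKO replicate 2, against 35.7 to 110 CPM in the other libraries. The summed level of 6 epithelial markers was highest in TN WT replicate 3 and at most 10.3 CPM elsewhere. The 8 adipocyte markers, among them Adipoq, Plin1 and Fabp4, were detected in every group, at 4633 to 12610 CPM at TN and 15230 to 29430 CPM in cold.

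The 10 transcripts covered a wide range of levels. Per kb of exon at TN in WT, Hspa5, the main ER chaperone (BiP), stood highest at 104.5 ± 13.6 CPM per kb (SD, n = 3 mice). Xbp1 followed at 69.3 ± 11.3, and neither overlapped its neighbour in this order. Atf4 at 47.9 ± 3.15, Atf5 at 41.3 ± 15.2 and Herpud1 at 39.6 ± 9.02 CPM per kb overlapped each other. Ddit3, which encodes CHOP, stood apart at 10.7 ± 0.924 CPM per kb. Ern1, Atf3 and Trib3 overlapped between 1.90 and 3.94 CPM per kb, and Chac1 was lowest at 1.23 ± 0.239. In cold WT mice, the per-length level of Atf5 was 102.4 ± 15.1 CPM per kb and overlapped that of Hspa5 (113.6 ± 11.8), while Trib3 stood above Ern1 and Atf3 in mean at 5.02 ± 0.621 CPM per kb and overlapped neither. The means of Xbp1 and Atf4 were nearly equal in cold, at 60.2 ± 17.7 and 60.8 ± 3.28 CPM per kb.

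**Figure D1:**
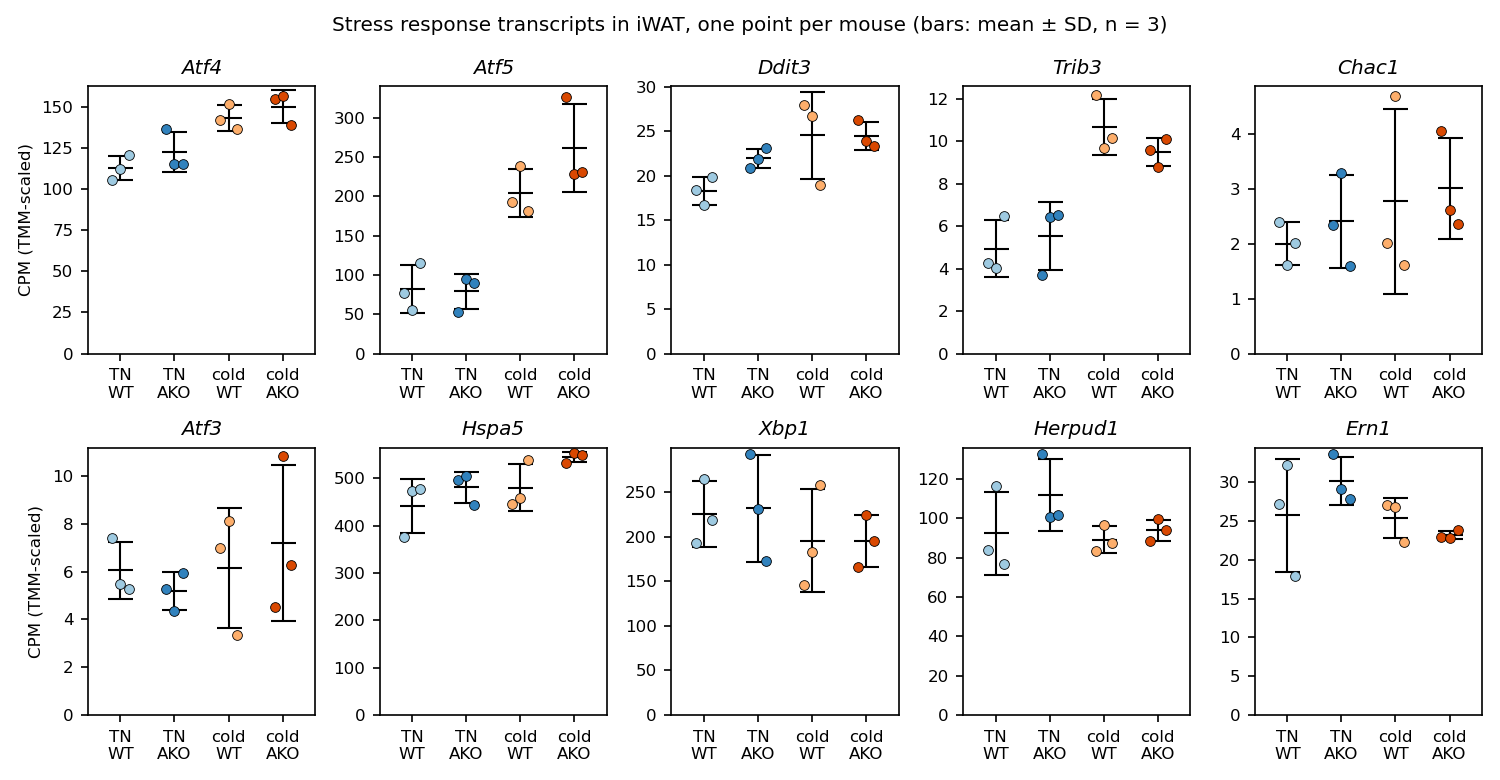
TMM-scaled CPM of the 10 stress genes (vertical axes from 0) in the 4 groups, with 1 point per mouse and bars for the mean ± SD of 3 mice. The Atf5 and Trib3 points of all cold mice lie above those of all TN mice, the Atf4 points overlap by a single pair, and the Xbp1 and Atf3 points of the groups intermix.

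Upon cold, 4 of the 10 genes rose and none fell, when cold was set against TN over both labelled genotypes in the quasi-likelihood test of edgeR, adjusted by Benjamini-Hochberg over all tested genes. The genes that rose were the ISR transcription factors Atf5, Atf4 and Ddit3 and the pseudokinase Trib3, by 2.87-, 1.25-, 1.22- and 1.92-fold. The ER chaperone Hspa5, the IRE1α pair Ern1 and Xbp1 and the degradation gene Herpud1 did not pass the test. Much of the transcriptome differed between the temperatures, with 24.8% of all tested genes called higher in cold and 24.0% called lower. The 4 of 10 higher and 0 of 10 lower are to be read against those shares. Length of exposure differed together with temperature (3 days in cold, 1 week at TN), so their parts cannot be told apart. The median log2 fold change of the 10 genes was 0.27, against -0.05 for all tested genes. In 2 of the 10, all 6 cold mice lay above all 6 TN mice, which held for 16.0% of tested genes. Without both libraries with muscle transcripts 3 of the 10 were called, as Ddit3 (0.26) lost its call. In bulk tissue, fewer cells of a type and less RNA per cell cannot be told apart.

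Atf5, an ATF4-related factor that also serves the mitochondrial unfolded protein response, occupies bases 44812256 to 44816658 of chromosome 7 (GRCm38). CPM values were 76.3, 55.3 and 115 in TN WT mice, 52.7, 94.7 and 89.3 in TN mice labelled HIF2α AKO, 193, 238 and 182 in cold WT mice, and 327, 228 and 231 in cold mice labelled HIF2α AKO. The lowest cold value was above the highest TN value, and cold HIF2α AKO replicate 1, 1 of the libraries with muscle transcripts, was the highest of all. The log2 fold change was 1.52 (SE 0.20, adjusted p = 2.37e-04) and lay between 1.40 and 1.68 when each library was left out in turn. Among the exons of Atf5, 82 bases (4.11%) are shared with the opposite strand genes Nup62 and Il4i1, and the strand setting of the counting is not given in the sources used here.

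Trib3, a pseudokinase that ATF4 and CHOP induce and that restrains insulin signalling through AKT, occupies bases 152337422 to 152344032 of chromosome 2. CPM values were 4.28, 4.04 and 6.48 in TN WT, 3.70, 6.44 and 6.503 in TN HIF2α AKO, 12.2, 9.70 and 10.1 in cold WT, and 9.59, 8.77 and 10.1 in cold HIF2α AKO libraries. Every cold library lay above every TN library, and TN WT replicate 3 and TN HIF2α AKO replicates 2 and 3 were the highest at TN. The log2 fold change was 0.94 (SE 0.17, adjusted p = 0.00138), between 0.83 and 1.06 with 1 library left out. The promoter line above has its C/EBP-ATF element from base 15 to base 22, counted from the RefSeq start. The gene bounds given here are those of GENCODE. On this strand their first base, 152344032, is the last base of the promoter line, so the element lies before them.

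Atf4, the central factor of the ISR, is a gene of a single exon block on chromosome 15, at bases 80255184 to 80257541. CPM values were 106, 113 and 121 in TN WT, 137, 116 and 115 in TN HIF2α AKO, 142, 152 and 136 in cold WT, and 155, 157 and 139 in cold HIF2α AKO libraries. TN HIF2α AKO replicate 1 was the highest TN library and lay just above cold WT replicate 3, which was the only overlap between the temperatures. The log2 fold change was small but narrow, at 0.32 (SE 0.069, adjusted p = 0.00415).

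Ddit3, which encodes the pro-apoptotic factor CHOP, occupies bases 127290774 to 127296288 of chromosome 10. CPM values were 18.4, 16.7 and 19.9 in TN WT, 20.8, 21.9 and 23.1 in TN HIF2α AKO, 28.0, 26.7 and 18.9 in cold WT, and 26.2, 23.9 and 23.3 in cold HIF2α AKO libraries. Cold WT replicate 3 lay within the TN range, and the other cold libraries lay above all TN values. The log2 fold change of 0.29 (SE 0.097, adjusted p = 0.0297) lost its call without any of 6 single libraries. Leaving out cold WT replicate 1 gave 0.24 and cold WT replicate 2 gave 0.25. Leaving out TN WT replicate 1 gave 0.29 and TN WT replicate 2 gave 0.25. Leaving out replicate 1 of the HIF2α AKO mice gave 0.26 for the cold library and 0.27 for the TN library. Of the Ddit3 exons, 68 bases (3.97%) are shared with the opposite strand gene Mars and 105 bases (6.13%) with a second Ddit3 entry of the annotation.

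The other 2 ATF4 targets among the 10 were low and varied between mice. Atf3, an inducible repressor, lay between 4.36 and 7.41 CPM at TN and between 3.34 and 10.8 CPM in cold, and its log2 fold change was 0.25 (SE 0.25, adjusted p = 0.428). Cold HIF2α AKO replicate 2 had the highest Atf3 level and also the highest summed level of 10 immediate early genes, at 403 CPM against 221 to 298 CPM in all libraries outside that group, and the part of these genes in the Atf3 value was not tested. Without this library the Atf3 difference was 0.040. Chac1, which degrades glutathione, rested on few reads, with 1.59 to 3.30 CPM at TN and 1.61 to 4.70 CPM in cold. Its log2 fold change was 0.39 (SE 0.29, adjusted p = 0.282), with a 95% interval from -0.25 to 1.03, and it was 0.082 without cold WT replicate 2, which held the highest value.

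The 4 genes of the ER arm gave small differences in both directions. Hspa5 had CPM between 376 and 504 at TN and between 445 and 553 in cold, and its log2 fold change was 0.15 (SE 0.089, adjusted p = 0.179). With limma voom the Hspa5 difference was 0.23 (SE 0.076, adjusted p = 0.0231) and was called. Xbp1, the factor activated by IRE1α, lay between 172 and 292 CPM at TN and between 145 and 258 CPM in cold, and it differed by -0.23 (SE 0.17, adjusted p = 0.276). Herpud1, a membrane protein of ER-associated degradation, lay between 77.1 and 133 CPM at TN and between 83.2 and 99.5 CPM in cold, with a difference of -0.15 (SE 0.11, adjusted p = 0.278). Ern1 lay between 17.9 and 33.7 CPM at TN and between 22.3 and 27.0 CPM in cold, with a difference of -0.20 (SE 0.13, adjusted p = 0.204). Without TN WT replicate 3, the library with epithelial transcripts and the lowest Ern1 value, the Ern1 difference was -0.30 and passed the test. For all 4 genes the cold range lay within or overlapped the TN range.

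TN HIF2α AKO replicate 1 had the highest Xbp1, Herpud1 and Ern1 levels of all 12 libraries, at 292, 133 and 33.7 CPM. The same library had the highest summed level of 6 plasma cell markers, at 1142 CPM, and of 8 lymphocyte markers, at 1706 CPM. Plasma cells are known for high XBP1 activity. Cold WT replicate 3 had the highest Xbp1 level in cold, at 258 CPM. Its summed lymphocyte level was the lowest of all 12 libraries, at 588 CPM, and its plasma cell level was 584 CPM. In cold, 6 of the 8 lymphocyte markers (75.0%) were called lower, against 24.0% of all tested genes. So were 2 of the 6 plasma cell markers and 3 of the 9 macrophage markers (33.3% each). Of the 8 adipocyte markers, 6 (75.0%) were called higher, against 24.8%. Within WT mice, 1 lymphocyte marker and 0 plasma cell or macrophage markers were called lower, against 5.68% of all tested genes. Within mice labelled HIF2α AKO, 2 of each of these 3 lists were, against 11.5%. The summed lymphocyte level was 1023 to 1706 CPM at TN and 588 to 1033 CPM in cold, and the plasma cell level 132 to 1142 and 278 to 601 CPM. No marker of these lists was at 0 throughout a group. Their part in the values of the 10 genes was not tested. Without TN HIF2α AKO replicate 1, the Xbp1 difference between temperatures was -0.13.

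**Figure D2:**
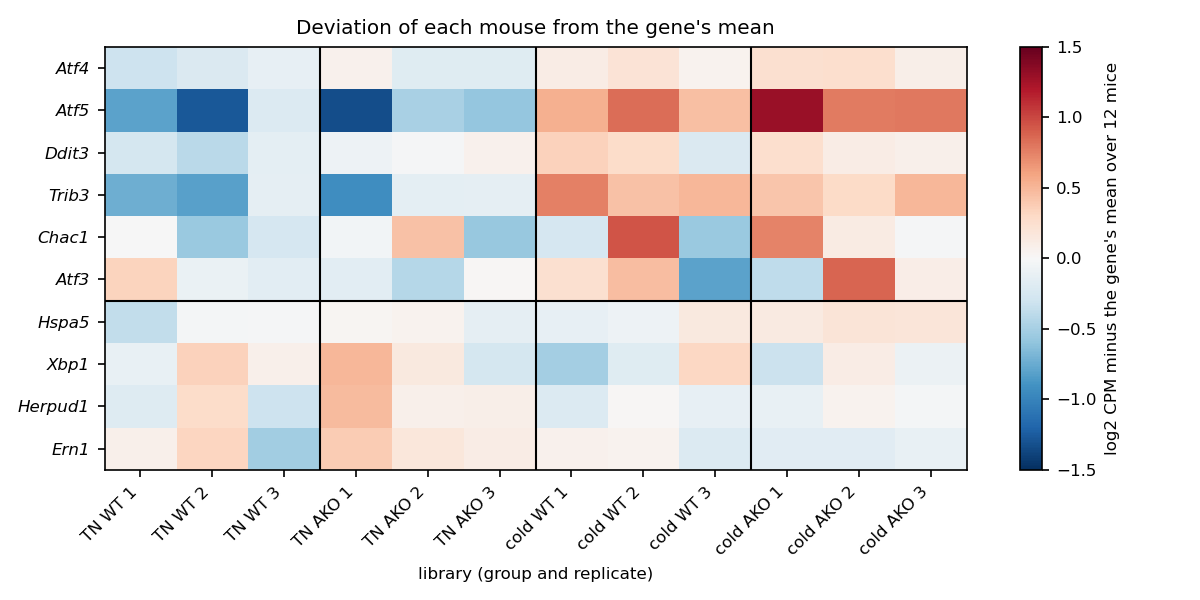
Deviation of each of the 12 libraries from the mean of each gene, as log2 CPM (colour scale from -1.5 to 1.5), with vertical lines between groups and a horizontal line below the ISR genes. The Atf5 and Trib3 rows change sign between TN and cold, whereas the Xbp1, Herpud1 and Ern1 rows peak in TN HIF2α AKO replicate 1.

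These directions depend in part on the scaling. TMM factors were 0.829 to 0.991 in cold libraries and 1.02 to 1.20 in TN libraries. With the library totals alone, the log2 fold changes of all genes shifted by a median of -0.28, and the share of calls that were higher in cold went from 50.9% to 21.5%. Atf5 (1.26) and Trib3 (0.67) were then still called higher, whereas Atf4 (0.035) and Ddit3 (0.016) were not called. Xbp1 (-0.52), Herpud1 (-0.44) and Ern1 (-0.49) were called lower, and Hspa5 (-0.14) and Atf3 (-0.014) changed sign without a call. The size factors of DESeq2 moved the median by 0.00725 and kept all 4 calls.

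Within WT mice, Atf5 rose by 1.31 (SE 0.29, adjusted p = 0.0100), Trib3 by 1.11 (SE 0.24, adjusted p = 0.00917) and Atf4 by 0.34 (SE 0.098, adjusted p = 0.0310) on the log2 scale, in the same edgeR fit. Ddit3 differed by 0.42 (SE 0.14) at an adjusted p of 0.05002, which lies just above the limit. It was called with DESeq2 (0.41, adjusted p = 0.0210), with the size factors of DESeq2 in edgeR (0.41, adjusted p = 0.0480) and with voom (0.52, adjusted p = 0.00222), and also without cold WT replicate 3 (0.58) or TN WT replicate 3 (0.48). These were 3 of 10 genes called higher and 0 lower, where 15.6% of all tested genes were called higher and 5.68% lower. Within mice labelled HIF2α AKO, Atf5 rose by 1.73 (SE 0.29, adjusted p = 0.00209), Trib3 by 0.77 (SE 0.24, adjusted p = 0.0352) and Atf4 by 0.29 (SE 0.098, adjusted p = 0.0465). Again 3 of 10 were called higher and 0 lower, against 15.6% and 11.5% of all tested genes.

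Ddit3 differed by 0.16 (SE 0.14, adjusted p = 0.399) within mice labelled HIF2α AKO. Hspa5 did not overlap between the temperatures in these mice, with 443 to 504 CPM at TN and 532 to 553 CPM in cold, yet its difference of 0.18 (SE 0.13, adjusted p = 0.289) missed the limit. Herpud1 (-0.25, SE 0.16) and Ern1 (-0.38, SE 0.18) were lower in all 3 cold mice than in all 3 TN mice of this genotype without passing the test. Ddit3 also kept the temperatures apart (at most 23.1 CPM at TN, at least 23.3 CPM in cold), as did Atf4, Atf5 and Trib3. The share of all tested genes that did so in this genotype was not counted. An unadjusted p under 0.05 in edgeR's quasi-likelihood test was reached by 42.7% of them. Ern1 was called lower with the 6 libraries of this genotype alone (-0.36), without TN WT replicate 3 (-0.38) and with library totals (-0.65). Of the 3 calls within this genotype, that of Atf5 alone held when replicate 1 or replicate 2 of the cold HIF2α AKO libraries was left out, where Trib3 was 0.76 and 0.82 and Atf4 0.27 and 0.26. Trib3 also lost its call without cold replicate 3 (0.72) and without TN replicate 1 (0.55) of this genotype, and with library totals (0.52). The Atf4 call of this genotype was also lost without TN HIF2α AKO replicate 2 or 3 (0.25 each) and without cold WT replicate 1 or TN WT replicate 1 or 2 (0.29 each). The Atf4 call in WT was lost without any of the 3 cold WT libraries (0.35, 0.27 and 0.38), without TN WT replicate 1 (0.30) and without TN WT replicate 2 (0.32). Both Atf4 calls were also lost with no filter on low counts (0.31 in each genotype), with the 6 libraries of each genotype alone (0.34 in WT and 0.31 in HIF2α AKO) and with library totals (0.053 and 0.018).

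**Figure D3:**
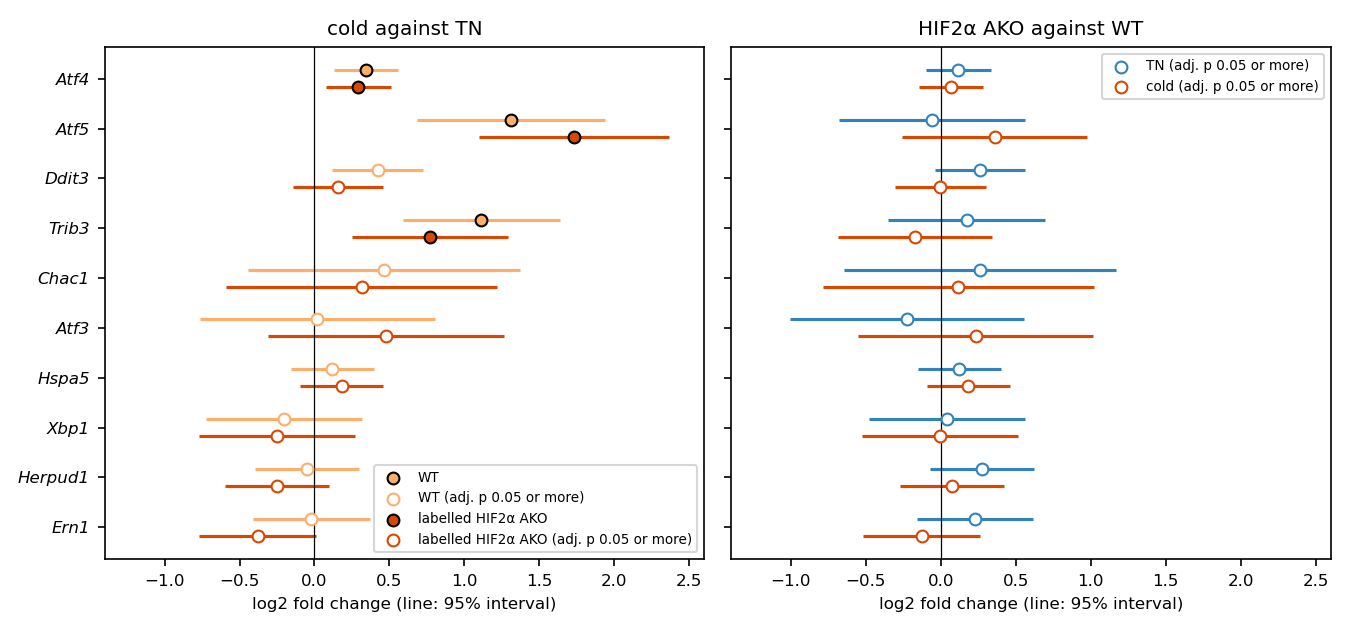
Log2 fold changes of the 10 genes for cold against TN in each labelled genotype (left) and for HIF2α AKO against WT at each temperature (right), with 95% intervals from the edgeR fit and filled points where the adjusted p was under 0.05. Filled points occur for Atf4, Atf5 and Trib3 in the left panel only.

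Between the labelled genotypes, none of the 10 genes passed the test at either temperature. In edgeR, 1 of the tested genes, or 0.00653%, was called in cold, and likewise 0.00653% at TN. At an unadjusted p under 0.05, 0 of the 10 genes passed in either comparison, against 2.95% of all genes in cold and 2.91% at TN. DESeq2 and limma voom also called 0 of the 10 in both. The thresholds that the study used for the cold comparison were an unadjusted p under 0.15 with an absolute log2 fold change above 0.2. The study applied them with DESeq2. Applied to edgeR's quasi-likelihood test, they were met in cold by 0 of the 10. At TN they were met by Ddit3 (log2 fold change 0.26) and Herpud1 (0.27), both higher in mice labelled HIF2α AKO. The share of all tested genes that met them is not given here.

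In cold, the largest difference was that of Atf5, with 262 ± 56.0 CPM (SD, n = 3) in libraries labelled HIF2α AKO and 204 ± 30.1 CPM (SD, n = 3) in WT. The log2 fold change of 0.36 had a 95% interval from -0.26 to 0.98, and leaving out cold HIF2α AKO replicate 1 gave 0.17. Hspa5 differed by 0.18 (interval -0.094 to 0.46), and Trib3 by -0.17 (interval -0.68 to 0.34). The intervals of Atf4 (-0.15 to 0.28) and Ddit3 (-0.31 to 0.30) were the narrowest besides that of Hspa5. The widest was that of Chac1, from -0.79 to 1.02. None of the 10 genes kept the 3 mice of one genotype apart from the 3 of the other in cold, which 7.53% of tested genes did.

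At TN, Ddit3 was higher in all 3 mice labelled HIF2α AKO than in all 3 WT mice, at 21.9 ± 1.12 CPM (SD, n = 3) against 18.3 ± 1.58 CPM (SD, n = 3). It was the single gene of the 10 whose genotypes did not overlap, where 7.69% of all tested genes did not, and its log2 fold change of 0.26 (SE 0.14, unadjusted p = 0.0838 in edgeR's quasi-likelihood test) did not pass the test. Herpud1 differed by 0.27 (SE 0.16) and Ern1 by 0.23 (SE 0.18), and both had their highest value in TN HIF2α AKO replicate 1. Atf5 differed by -0.06 (SE 0.28). The interaction of genotype and temperature was called for 0% of all tested genes and 0 of the 10, while 327 genes and 0 of the 10 passed an unadjusted p under 0.05. DESeq2 and voom likewise called 0 of the 10 for it. The largest interaction terms of called genes were 0.42 (interval -0.45 to 1.29) for Atf5 and -0.34 (interval -1.08 to 0.39) for Trib3.

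Around the 10 genes, 6 lists of the same pathways were followed in the comparison of cold with TN, and their shares are to be read against the 24.8% of all tested genes called higher and the 24.0% called lower. None of their genes was called between the labelled genotypes at either temperature. The 16 genes of the eIF2 machinery, which sets the ISR, held 10 genes called higher (62.5%) and 2 lower (12.5%), with a median log2 fold change of 0.25. Eif2b1 (0.54, SE 0.085), Eif2b3 (0.52, SE 0.11) and Eif2b4 (0.45, SE 0.062) encode subunits of the exchange factor eIF2B that phosphorylated eIF2 blocks, and in each of them all 6 cold mice lay above all 6 TN mice. Ppp1r15b (0.46, SE 0.12), a subunit of the phosphatase that removes the phosphate, also rose. Eif2ak2 (-0.32, SE 0.093), which encodes the viral RNA kinase PKR, and Eif2ak3 (-0.29, SE 0.10), which encodes PERK, fell. Eif2ak1 (0.28, SE 0.057), the kinase of the heme and mitochondrial branch, rose and was picked after its value was seen. With library totals alone, 2 genes of this list were called higher (Eif2b1 and Eif2b3) and 5 lower, PKR and PERK among them.

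Of the 44 listed ATF4 targets, 21 were called higher in cold and 6 lower, which is 47.7% and 13.6% against 24.8% and 24.0% of all tested genes, with a median of 0.30. Cebpb (1.97, SE 0.21), a C/EBP partner of ATF4 that also acts in adipogenesis, had 13.2 to 34.9 CPM at TN and 75.0 to 148 CPM in cold. Vldlr (1.73, SE 0.17), a lipoprotein receptor, Asns (1.67, SE 0.22), which makes asparagine, and Gpt2 (1.37, SE 0.18), a mitochondrial alanine aminotransferase, followed, and the temperatures overlapped in none of these 4. Asns had 20.9 to 55.5 CPM at TN and 92.9 to 177 CPM in cold. On the other side, Pycr1 (-0.94, SE 0.22) and Aldh18a1 (-0.48, SE 0.14), which make proline, Mthfd1l (-0.58, SE 0.17) of the mitochondrial folate cycle and Rnf122 (-0.49, SE 0.15) fell. Cebpb and Vldlr are also known to respond to other signals in fat cells, such as cAMP and PPARγ.

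Further genes of that list were picked after their values were seen. Fgf21, a secreted hormone, had the largest rise of the list, with 17 to 49 reads in cold libraries and 0 to 6 reads in TN libraries (log2 fold change 3.58, SE 0.44, adjusted p = 1.26e-04 in edgeR's quasi-likelihood test). The 7 aminoacyl-tRNA synthetases of the list were all called higher, by 0.27 to 1.21 on the log2 scale, with Gars (1.21, SE 0.12) at the top. With library totals alone, 5 of the 7 were called higher and the lowest of the 7 differed by -0.016. Under that scaling the whole list held 16 genes called higher and 10 lower, and Cebpb (1.697), Vldlr (1.45), Asns (1.39) and Gpt2 (1.09) kept their calls.

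**Figure D4:**
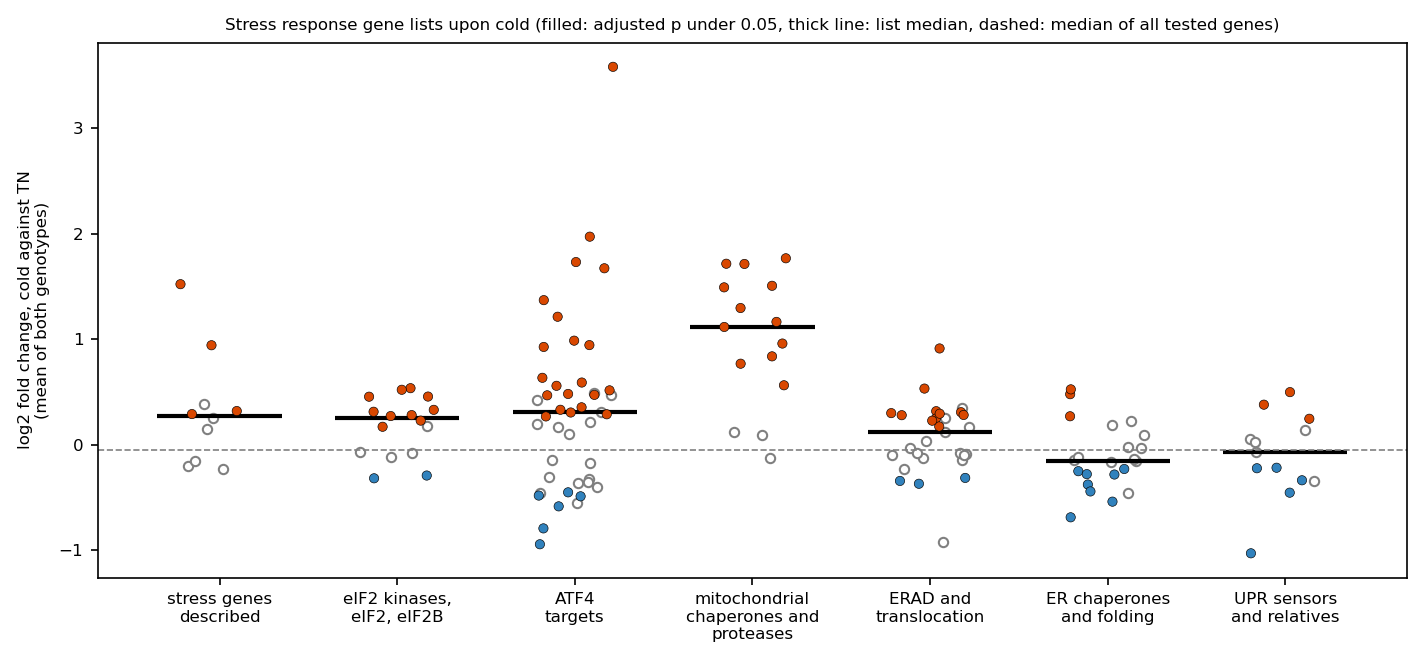
Log2 fold changes of cold against TN over both genotypes for the 10 stress genes and 6 lists of related genes, with 1 point per gene, filled where the adjusted p was under 0.05, a thick line at the median of each list and a dashed line at the median of all tested genes (-0.05). The mitochondrial list lies highest, with a median of 1.11, and the chaperone list lowest, with a median of -0.15.

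Mitochondrial chaperones and proteases, which the mitochondrial unfolded protein response induces, had the highest median of the 6 lists. Of 15 genes, 12 were called higher (80.0%) and 0 lower, against 24.8% and 24.0% of all tested genes, with a median log2 fold change of 1.11. Hspa9 (1.77, SE 0.17), the chaperone of the matrix, had 258 to 447 CPM at TN and 965 to 1685 CPM in cold. Its nucleotide exchange factor Grpel1 (1.71, SE 0.14), the co-chaperone Dnaja3 (1.71, SE 0.15) and the import channel gene Timm23 (1.51, SE 0.13) rose as far, with no overlap between the temperatures. The 8 thermogenic genes, among them Ucp1, were called higher throughout with a median of 5.24, and the adipocyte markers had a median of 0.85. Ndufb7 (1.47, SE 0.14) and Ndufa11 (1.53, SE 0.14) of respiratory complex I also rose. They are named below because their profiles lay nearest to that of Atf5, so a rise like that of Atf5 came with this choice. Other mitochondrial genes were not followed as a list, so whether the rise was particular to chaperones and proteases was not tested. With library totals alone, 12 genes of the mitochondrial list were still called higher and 2 were called lower.

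Of 22 ER chaperones and folding enzymes, 3 were called higher (13.6%) and 8 lower (36.4%), against 24.8% and 24.0% of all tested genes, with a median of -0.15. Within WT mice, 3 were called higher (13.6%) and 1 lower (4.55%), against 15.6% and 5.68% of all tested genes. Within mice labelled HIF2α AKO, 2 were called higher (9.09%) and 4 lower (18.2%), against 15.6% and 11.5%. The interaction of genotype and temperature was called for 0 of the 22. Ero1lb (-0.69, SE 0.18), an oxidase of the ER, Sdf2l1 (-0.54, SE 0.14), a cofactor of BiP, Pdia4 (-0.44, SE 0.10), a disulfide isomerase, and Hsp90b1 (-0.38, SE 0.10), which encodes GRP94, fell. Within WT mice these genes differed by -0.66, -0.45, -0.38 and -0.31 and were not called. The differences in mice labelled HIF2α AKO were -0.72, -0.63, -0.50 and -0.44. Hsp90b1 had 490.0 to 670 CPM at TN and 406 to 466 CPM in cold, while Hspa5, a partner in the same folding pathway, had overlapping ranges. Fkbp2 (0.52, SE 0.092), a prolyl isomerase, Ero1l (0.48, SE 0.087), an oxidase that hypoxia also induces, and Sil1 (0.27, SE 0.083), the exchange factor of BiP, rose. With library totals alone, 1 gene of the list (Fkbp2) was called higher and 16 lower. Without both libraries with muscle transcripts, 7 genes of the list were called.

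Of 29 genes of ER-associated degradation and protein translocation, 11 were called higher (37.9%) and 3 lower (10.3%), against the same 24.8% and 24.0%. The list median was 0.12. Within WT mice, 4 of the 29 were called higher (13.8%) and 1 lower (3.45%), against 15.6% and 5.68% of all tested genes. Within mice labelled HIF2α AKO, 1 was called higher (3.45%) and 4 lower (13.8%), against 15.6% and 11.5%. The interaction of genotype and temperature was called for 0 of the 29. Dnajb9 (0.91, SE 0.21), a BiP co-chaperone that spliced XBP1 drives, rose from 26.2 to 42.5 CPM at TN to 43.3 to 109 CPM in cold. Its difference was 1.23 in WT and 0.60 in mice labelled HIF2α AKO. Derl1 (0.53, SE 0.15) and Erlec1 (0.32, SE 0.090) of the degradation machinery rose, whereas the signal peptidase subunit Spcs3 (-0.37, SE 0.081) and the mannosidase-like genes Edem1 (-0.34, SE 0.089) and Edem2 (-0.32, SE 0.11) fell. The number of calls in this list was 14, and 9 without TN WT replicate 2. With library totals alone, Dnajb9 (0.60) was the single gene of the list called higher and 14 were called lower.

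Among UPR sensors and their relatives, 13 of 14 listed genes were tested, of which 3 were called higher (23.1%) and 5 lower (38.5%), with a median of -0.07. The share called higher was near that of all tested genes (24.8%), and 24.0% of all tested genes were called lower. Wfs1 (0.50, SE 0.067), an ER membrane protein that restrains ATF6, rose from 26.9 to 32.6 CPM at TN to 37.6 to 46.3 CPM in cold. Tmbim6 (0.38, SE 0.098), an inhibitor of IRE1α and of cell death, and Atf6 (0.25, SE 0.074) also rose. Creb3l1 (-0.46, SE 0.16), Creb3l2 (-0.22, SE 0.085) and Atf6b (-0.22, SE 0.055), which encode membrane-bound factors like ATF6, and Traf2 (-0.34, SE 0.089), an adaptor of IRE1α, fell. With library totals alone, Wfs1 (0.22) was the single gene called higher and 9 were called lower.

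The tested genes with a profile over the 12 libraries nearest to that of each called gene were listed, by the root mean square difference of centred log2 CPM among 13143 genes. Nearest to Atf5 were Ndufb7 (0.16) and Ndufa11 (0.16), which encode subunits of respiratory complex I. Nearest to Atf4 were Yrdc (0.071), a tRNA-modifying enzyme, and Icmt (0.077), a methyltransferase of prenylated proteins. Nearest to Ddit3 were Iffo2 (0.11) and Sorbs3 (0.11), and nearest to Trib3 were Gpr30 (0.16) and Kcnn1 (0.17). The distance of Ndufb7 is small beside the spread of Atf5 itself, whose SD over the libraries was 0.85, whereas the distances for Ddit3 were closer to its own SD of 0.22. These distances describe the 12 libraries, which share their temperature groups.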

How the data were processed

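The counts of reads per gene that the authors deposited for 12 iWAT libraries were used as whole numbers. Per the labels and the methods of the study, reads were trimmed (Trim Galore 0.4.4), aligned to GRCm38 (STAR 2.6.1d) and counted (HTSeq 0.13.5), while the annotation and the strand setting are not given in the sources used here. The 5 tallies of reads outside genes, 21.9 to 27% of the reads listed, were left out. Each of the 12 per-sample tables equalled its column of the series table.

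Genes were kept by filterByExpr (minimum count 10, minimum total 15), scaled by TMM and fitted in a single model of 4 groups with edgeR 4.0.16 (R 4.3.3). Quasi-likelihood p-values were Benjamini-Hochberg adjusted over 15306 genes, with a limit of 0.05, and the coefficient of variation between mice was 0.202. Log2 CPM used a prior count of 2. Positions and exon lengths came from the GENCODE annotation of GRCm38, and promoters from RefSeq. The 10 genes and all lists were chosen with earlier results of these data known. The genes named from each list were the 4 that rose most and the 4 that fell most among its calls (fewer where fewer were called), at a mean count of at least 50, and for each called member the 2 genes nearest in profile. A gene that this rule named is not reported here. Alternatives were DESeq2 1.42.0 and its size factors, limma 3.58.1 (voom with quality weights), no filter, a replicate block, the 6 libraries of a contrast alone, and each library left out. Unscaled totals and leaving out both libraries with muscle transcripts were added after seeing the data. The fit was tested on simulated data.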

Additional observations from a re-analysis of the deposited data

How the results depend on the processing

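The 3 mice per group limit these tests, and genes of few reads such as Chac1 leave wide intervals. Counts on whole genes resolve neither spliced Xbp1 nor translated Atf4, and antisense overlap at Atf5 and Ddit3 could not be resolved without the strand setting. Atf5 and Trib3 were called higher in cold, averaged over genotypes, in all alternatives tried. The calls of Atf4 and Ddit3 depended on the scaling, and that of Ddit3 on single libraries. Where a value below changed its direction or call, the cause was not tested.

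The replicate number was not used as a pairing in the main fit. Of 18 pairs of same-numbered libraries, 5 had correlated deviations over 0.1 (range -0.426 to 0.392). Libraries of different numbers were not compared, so these correlations cannot decide whether equal numbers mark a pairing. With the replicate number as a block, Ddit3 over both genotypes (0.28), Atf4 in WT (0.34) and Atf4 in HIF2α AKO (0.29) lost their calls, and 3 of the 10 genes were called over both genotypes. Atf3 in WT (-0.028) and Ddit3 between genotypes in cold (0.00088) changed sign.

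Between genotypes, the number of all genes called was 1 at each temperature. It was 7 in cold and 9 at TN with DESeq2, 2 and 2 with voom, and 0 and 0 with the 6 libraries of each contrast alone. The latter fit called 1752 genes for cold in WT in place of 3259. With library totals, 5888 genes were called for cold in WT and 6365 in HIF2α AKO in place of 4138, 7 of the eIF2 list in place of 12, and 17 of the chaperone list in place of 11. Without both libraries with muscle transcripts, 1514 genes and 1 of the 10 stress genes (Atf5) were called for cold in HIF2α AKO, and 7 of the chaperone list. Ddit3 over both genotypes was then 0.26 and no longer called.

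Calls gained or lost by Hspa5, Ddit3, Ern1, Atf4 and Trib3 under other fits stand beside their values above. Further differences changed sign without being called. With library totals these were Atf3 (-0.014) and Hspa5 (-0.14) over both genotypes, Atf3 (-0.25) and Hspa5 (-0.19) in WT, Ddit3 (-0.11) and Hspa5 (-0.087) in HIF2α AKO, and Xbp1 between genotypes at TN (-0.018). With voom these were Atf3 (-0.039) and Herpud1 (0.043) in WT, Xbp1 in HIF2α AKO (0.030), Chac1 (-0.0087) and Xbp1 (0.25) between genotypes in cold, and Atf5 (0.12), Chac1 (-0.21) and Xbp1 (-0.033) between genotypes at TN. For the genotypes in cold, Ddit3 and Xbp1 were 0.024 and 0.016 with DESeq2 or its size factors, and 0.033 and 0.027 with no filter on low counts. With no filter, Atf3 in WT was -0.021. Without both libraries with muscle transcripts, Chac1 (-0.16) and Xbp1 (0.10) changed sign between genotypes in cold, and Chac1 (-0.036) at TN.

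With single libraries left out, the genes called ranged from 1381 to 3722 for cold in WT and from 1613 to 4853 in HIF2α AKO, the stress genes called in HIF2α AKO from 1 to 4, and the degradation and translocation genes from 9 to 16. For cold in WT, 1381 genes were called without TN WT replicate 2, 1469 without cold WT replicate 3 and 1810 without TN WT replicate 1. For HIF2α AKO, 1613 were called without its cold replicate 1, 1735 without TN replicate 1 and 2450 without TN replicate 3. The single stress gene was left without cold replicate 1 or cold replicate 2, and the 9 degradation and translocation genes without TN WT replicate 2. Cold in WT gave ranges of -0.27 to 0.32 for Atf3, -0.18 to 0.74 for Chac1, -0.17 to 0.13 for Herpud1 and -0.22 to 0.15 for Ern1. The genotypes in cold gave -0.18 to 0.52 for Atf3, -0.16 to 0.10 for Ddit3, -0.16 to 0.77 for Chac1 and -0.18 to 0.25 for Xbp1. At TN they gave -0.28 to 0.26 for Atf5, -0.036 to 0.49 for Chac1 and -0.16 to 0.21 for Xbp1.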

Other observations

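Between the labelled genotypes at TN, 4 of the 44 listed ATF4 targets had an unadjusted p under 0.05, against 2.91% of all tested genes, and all 4 were higher in mice labelled HIF2α AKO. These genes were picked after their values were seen. Jdp2, a bZIP partner of the ATF family, differed by 0.63 on the log2 scale (SE 0.11, unadjusted p = 1.62e-04 in edgeR's quasi-likelihood test) and did not pass the adjustment over all genes (adjusted p = 0.827). Sesn2 (0.41, SE 0.13) and Ddit4 (0.61, SE 0.27), both inhibitors of mTORC1, and Cebpg (0.30, SE 0.12), a dimer partner of ATF4, had adjusted p-values of 0.9995. In cold, 1 gene of this list had an unadjusted p under 0.05, and it was Cbs, which was lower in libraries labelled HIF2α AKO (log2 difference -1.0002, SE 0.42). The interaction of genotype and temperature was called in edgeR for 0 of the 44 genes, and 5 of them had an unadjusted p under 0.05, against 2.14% of all tested genes.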
